A study of Canis lupus familiaris with 28 samples.

Results

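The interleukins and their receptors were examined in the blood of dogs with canine atopic dermatitis (AD) and of healthy dogs. The set held every gene whose symbol on the array began with IL followed by a digit, apart from 16 listed genes that were left out, among them IL4, IL13, IL10 and IL31RA. This gave 58 of the 34382 gene names on the array, read by 85 of its 43603 probes that were not controls. Whole blood from 20 AD dogs and from 8 healthy dogs was hybridised, 1 dog per two-color array. All animals were privately owned dogs of various breeds, and the labels give neither the age nor the breed of a given array. On each array the cRNA of the dog was labelled with Cy5 and a common reference with Cy3, and the reference was a pool of RNA from 13 other healthy dogs. The labels call the source whole blood, and the methods describe the RNA as that of peripheral blood nuclear cells. The labels separate the groups by disease state and name no treatment.

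Interleukins are secreted proteins by which leukocytes and epithelial cells signal to each other. Most act through receptors of 2 chains, one that binds the ligand and one that is shared by several ligands and carries the signal through JAK kinases and STAT factors. The IL-1 family, with IL18, IL33 and the IL-36 cytokines, signals through MYD88 instead, and it is restrained by decoy receptors such as IL1R2 and by binding proteins such as IL18BP. In blood, many receptors are made by resting leukocytes, whereas a large part of the ligands is made after stimulation or in tissues such as the skin.

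The arrays differed in quality. In the dog channel, 84.3% to 90.3% of all probes stood well above background on the 8 healthy arrays, and between 72.5% and 87.5% on 13 of the AD arrays. On the other 7 AD arrays, those of AD dog 14 and AD dogs 15 to 20, this share was 51.7% to 63.2%. The 8 healthy arrays lay on 2 slides of 1 scan day that held no AD dog, so that group and slide or scan day cannot be told apart, and no comparison within a slide or scan day could be made. The lowest correlation between the log2 ratios of any pair of arrays was -0.397, and the direction of the ratios was kept as the methods give the dyes. T cell, B cell, monocyte, neutrophil, cytotoxic, eosinophil and basophil, erythroid and platelet marker genes were on the array for 28 of 32 listed genes, and 27 of them were well above background on every array. None of the tested marker genes had an unadjusted p under 0.05 between the groups by limma. Whole blood was measured, so fewer cells of a type and less RNA per cell cannot be told apart.

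A probe on this array is a single strand of 60 bases, and several of the results below turn on which part of a transcript it reads. The probes with an unadjusted p under 0.05 between the groups, and the second IL18 probe, are therefore given here, 5′ to 3′, as the array files list them, with positions in the canFam3 build. Both IL18 probes lay on chromosome 5 (chr5:20995155-20995214 and chr5:20990570-20990629, plus strand), the IL16 probe at chr3:56484756-56484815 (minus strand), the IL11 probe at chr1:102317539-102317598 (plus strand) and the IL7 probe at chr29:26422495-26422554 (minus strand). No letters are capitalised in these, since no stretch was singled out.
IL18, brighter probe: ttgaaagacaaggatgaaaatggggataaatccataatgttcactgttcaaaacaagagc
IL18, other probe: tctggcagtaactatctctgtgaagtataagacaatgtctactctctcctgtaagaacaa
IL16: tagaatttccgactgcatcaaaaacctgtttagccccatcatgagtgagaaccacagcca
IL11: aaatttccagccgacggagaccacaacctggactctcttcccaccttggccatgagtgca
IL7: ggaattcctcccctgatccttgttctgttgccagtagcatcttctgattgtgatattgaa

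IL6ST encodes gp130, the signalling chain shared by the receptors of IL-6, IL-11, IL-27 and related cytokines, and was read by 4 probes on chromosome 2. The end of its brightest probe (chr2:43215023-43215082, minus strand) is shown because it recurs in probes of unrelated transcripts. The lines give 30 bases of that probe, of the probe for the pseudouridine synthase gene TRUB2 and of a probe for an expressed sequence tag, with the stretch GGCTCAGT in capitals. The stretch was not matched to a repeat library.
IL6ST, brightest probe: cattgttggggcacctggctGGCTCAGTca
TRUB2: ggcacctgggtGGCTCAGTcagttaagtgt
A_11_P133471: agtacctggctGGCTCAGTcagtagagcat

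IL2, the growth factor of activated T cells, was read by 7 probes, of which 3 crossed an intron in canFam3. These are shown because a probe that crosses an intron reads spliced RNA. The probes A_11_P053566 (chr19:17753723-17756059) and A_11_P054831 (chr19:17753706-17756042) overlapped, and the 43 bases that they share are in capitals. The third, A_11_P053571, spanned chr19:17751045-17753593.
A_11_P053566: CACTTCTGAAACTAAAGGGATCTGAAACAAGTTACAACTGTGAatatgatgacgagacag
A_11_P054831: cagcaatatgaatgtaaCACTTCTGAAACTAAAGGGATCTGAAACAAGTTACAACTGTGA
A_11_P053571: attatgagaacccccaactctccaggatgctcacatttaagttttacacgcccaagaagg

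Nearly all interleukin and receptor genes gave a signal above background in healthy dog blood. A gene was taken as detected on an array when any of its probes was marked well above background in the dog channel. On the 8 healthy arrays 51 to 54 of the 58 genes were detected. On the 13 AD arrays with at least 65% of all probes detected it was 46 to 54 genes, and on the other 7 AD arrays it was 23 to 33. The member genes detected thus followed the share of all probes detected on the same array, and no test between the groups was made. Of the 85 member probes 36.5% were well above background on all 28 arrays, against 47.1% of all probes on the array. Without the 7 arrays of low detection these shares were 62.4% and 66.7%. On the healthy arrays alone they were 77.6% and 77.4%. The mark of detection was permissive: the brightest probes of the skin keratins KRT14 and KRT5 and of the liver gene ALB, which blood cells should lack, were well above background on all 8 healthy arrays and on 20, 19 and 19 AD arrays. A mark of detection was therefore read as signal above background and not as expression.

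**Figure D1:**
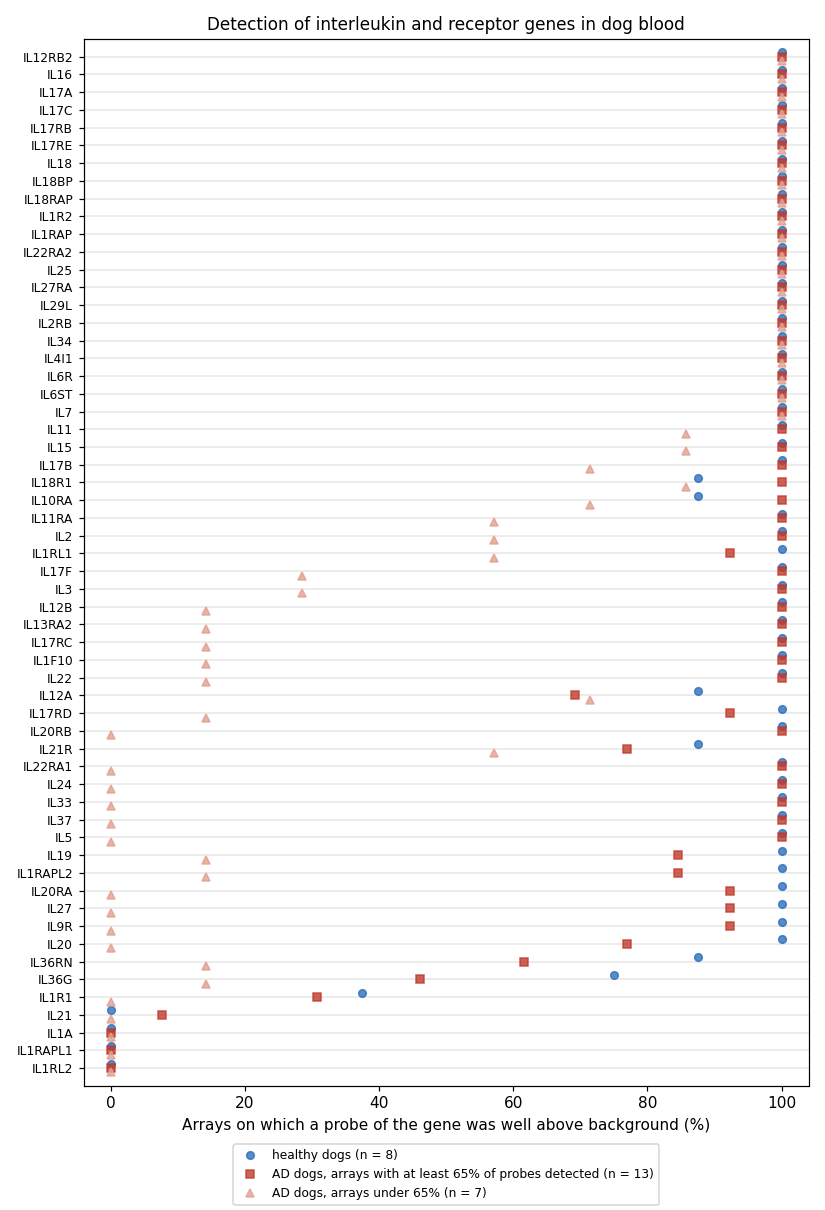
Share of arrays on which each of the 58 genes was detected, as a percentage, in 8 healthy dogs (circles), in the 13 AD dogs whose arrays had at least 65% of probes detected (squares) and in the 7 other AD dogs (triangles). The upper 21 genes lie at 100% in all 3 sets of arrays, and the triangles of most others lie far to the left of the other symbols.

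The genes detected on all 28 arrays numbered 21. Receptor chains made up 10 of them. Of the IL-1 family these were IL1R2, the decoy receptor of IL-1, IL1RAP, the accessory chain of the IL-1 receptor, and IL18RAP, the accessory chain of the IL-18 receptor. IL6R, IL6ST, IL27RA and IL12RB2 are chains of the IL-6, IL-27 and IL-12 receptors, IL2RB is the chain that IL-2 and IL-15 share, and IL17RB and IL17RE belong to the IL-17 receptors. The description of the IL17RE probe names another gene, JAGN1, so its signal cannot be assigned. The inhibitors IL18BP and IL22RA2, which bind IL-18 and IL-22, were also on all arrays, as was the enzyme IL4I1, an amino acid oxidase. The ligands on all arrays were IL7, IL16, IL17A, IL17C, IL18, IL25, IL29L and IL34, that is 8 of 29 ligand genes. Without the 7 arrays of low detection 39 genes were detected on all 21 remaining arrays, 21 of 29 ligands and 15 of 26 receptors among them.

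No dog had a signal well above background for 3 members, IL1A, IL1RL2 and IL1RAPL1. IL1A encodes the cell-bound form of IL-1, and IL1RL2 is the receptor of the IL-36 cytokines. IL1RAPL1 is a relative of the IL-1 receptor known from neurons. Each had 1 probe, with median processed signals of 14.6, 9.46 and 10.2 in AD dogs and of 30.5, 14.4 and 18.1 in healthy dogs. The IL21 gene was detected in a single AD dog, on 1 of its 2 probes, and in no healthy dog. In that dog, AD dog 12, the probe had a signal of 503.4 and the overlapping second probe one of 14.48. The second probe was well above background in no dog, so the probes of IL21 did not agree. IL1R1, the signalling receptor of IL-1, was detected in 4 AD dogs and 3 healthy dogs. Of the probes, 6 (7.06%) were on no array, against 4.72% of all probes. Those 6 had a mean GC content of 37.8% ± 3.75 (SD), and the 31 member probes on all arrays one of 47.0% ± 8.36 (SD). Over all probes of the array the means of the same classes were 38.4% and 44.7%, so GC content moved with detection in the members as it did elsewhere.

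Apart from the arrays of low detection, the largest differences between the groups in the share of arrays with signal were those of 3 cytokine genes of skin and other epithelia. IL36G, an IL-36 agonist of keratinocytes, was detected on 6 of the 13 AD arrays and on 6 of the 8 healthy arrays. IL36RN, the antagonist of the IL-36 receptor, was detected on 8 of 13 and 7 of 8. IL20, an IL-10 family cytokine that acts on keratinocytes, was detected on 10 of 13 and 8 of 8. All 3 shares were lower in the AD dogs. The share of all probes detected was lower on these arrays too, and its part in these differences was not tested.

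The IL2 gene was detected in 17 AD dogs and in all 8 healthy dogs, but its probes did not agree on this. The intron-crossing probes were well above background in 8 (A_11_P053566), 14 (A_11_P054831) and 15 (A_11_P053571) AD dogs and in all 8 healthy dogs. The probe at chr19:17756252-17756311 was well above background in 3 AD dogs and in none of the healthy dogs. The other 3 probes were well above background in 9, 12 and 13 AD dogs and in 4, 8 and 8 healthy dogs. Only the probe A_11_P053451 passed the signal filter, and it did so through the healthy arrays. Its median signal there was 114.9 for the dogs and 112.9 for the reference, against 76.84 and 73.01 on AD arrays. The log2 ratio of this probe differed by -0.06 (SE 0.15), which is within the spread between dogs (limma unadjusted p = 0.702). It was well above background in only 13 AD dogs, so this difference rests in part on signals near background.

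No interleukin or receptor gene passed the test between AD and healthy dogs. The log2 ratio of dog to reference, centred on the median of each array, was compared by limma over the 30202 probes that were well above background on any array and whose median signal exceeded 100 in either channel in either group. Of the 85 member probes 54, of 40 genes, were among these. None had an adjusted p of 0.085 or less, the threshold of the study, or of 0.05 or less, and the share of all tested probes that did was 0% at both thresholds. The study itself reported transcripts that differed at 0.085, after a filter that kept fewer transcripts than were tested here. The smallest adjusted p of a member was 0.620 by limma. At an unadjusted p under 0.05 there were 5 member probes, 2 higher and 3 lower in AD dogs, where 6.12% of all tested probes had such a p (1.65% higher and 4.46% lower). The median log2 fold change of the member probes was 0.01, and that of all probes tested was -0.01. Of the 54 member probes 25 (46.3%) had a value below 0, where 52.1% of all tested probes did, and 29 a value above 0, with log2 fold changes from -0.42 to 0.50, and in 32 the difference was smaller than its standard error.

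**Figure D2:**
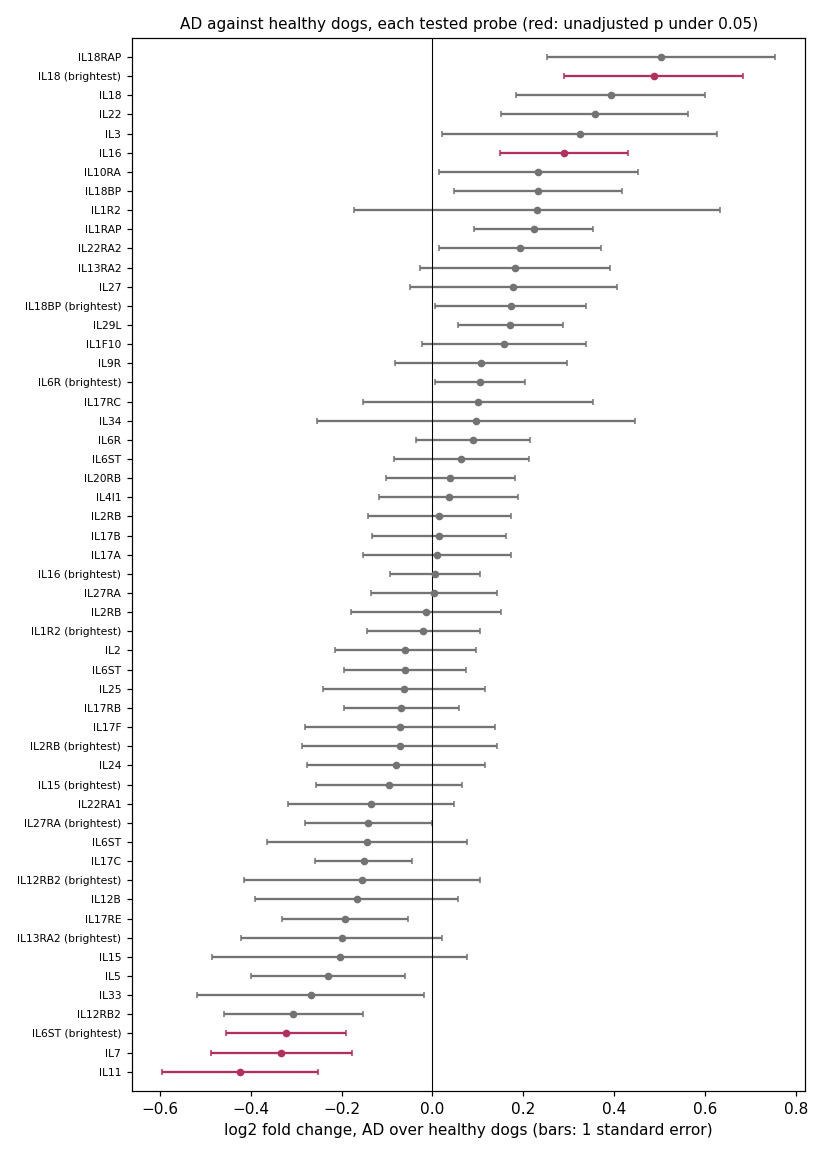
Log2 fold change of AD over healthy dogs for the 54 member probes tested, ordered by size, with bars of 1 standard error from limma. The 5 probes with an unadjusted p under 0.05 are in red, and the bars of 32 probes cross 0.

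The IL-18 genes were grouped after their values had been seen. The 5 tested probes, of 3 genes, had log2 fold changes above 0, as 47.9% of all tested probes did, and none passed the adjusted threshold. IL18, an IL-1 family cytokine that drives interferon-gamma in T cells and natural killer cells, had a log2 ratio from -0.57 through a median of -0.34 to 0.78 in healthy dogs on its brighter probe. In AD dogs the same probe ran from -0.57 through 0.32 to 1.22. The groups overlapped over the whole healthy range, and 15 of 20 AD dogs lay above the healthy mean. The means were -0.18 ± 0.43 (SD, n = 8) and 0.31 ± 0.50 (SD, n = 20), a log2 fold change of 0.49 (SE 0.20) with an unadjusted p of 0.0189 and an adjusted p of 0.620 by limma. The second IL18 probe gave 0.39 (SE 0.21), with an unadjusted p of 0.0683 by limma. Across the 28 dogs both probes gave nearly the same profile, with a Pearson correlation of 0.973.

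IL18RAP, the accessory chain through which IL-18 signals, had log2 ratios from -0.42 through 0.11 to 0.96 in healthy dogs and from -0.33 through 0.54 to 2.54 in AD dogs. AD dogs 2 and 14 stood apart at 2.54 and 2.35. The difference was 0.50 (SE 0.25), with an unadjusted p of 0.0534 by limma, and the probe did not pass. The binding protein IL18BP differed by 0.17 (SE 0.17) and 0.23 (SE 0.19) on its 2 probes, which is about the size of the error. IL18R1, the ligand-binding chain, was below the signal filter and was not tested, and was detected in 19 AD dogs and 7 healthy dogs.

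For IL6ST, the brightest of 4 probes was the only one with an unadjusted p under 0.05. That probe gave log2 ratios from -0.42 through -0.09 to 0.26 in healthy dogs and from -1.01 through -0.25 to -0.06 in AD dogs. The groups overlapped, and 18 of 20 AD dogs lay below the healthy mean. The log2 fold change was -0.32 (SE 0.13), with an unadjusted p of 0.0213 and an adjusted p of 0.643 by limma. The other 3 probes of the gene gave -0.14 (SE 0.22), 0.06 (SE 0.15) and -0.06 (SE 0.14). Averaged over its 4 probes, the gene differed by -0.12 with an unadjusted p of 0.327 by limma.

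The brightest IL6ST probe also did not follow the other probes of its gene from dog to dog. Its correlation with them over the 28 dogs was -0.212, 0.300 and 0.347. Among the 20524 other tested probes that were well above background on all arrays, 72.2% had a lower correlation with it than the best of these did. The 30 probes most like it had correlations of 0.922 to 0.980, as a description over 28 dogs of both groups that share 1 reference. The probe A_11_P133471, whose sequence is given above, was the nearest of all at 0.980, and the TRUB2 probe, also among the 30, was at 0.945. GGCTCAGT as printed was found in 4 of these 30 probes. On the whole array it stood in 70 probes (0.161% of the array) and its reverse complement in 45 (0.103%), and IL6ST was the only member with either. Of the 59 other tested probes with GGCTCAGT as printed, 17 (28.8%) were lower in AD dogs at an unadjusted p under 0.05 and 1 was higher, beside 4.46% and 1.65% of all tested probes. Their median log2 fold change was -0.16. The stretch was chosen after the values had been seen, and the part of shared sequence in the IL6ST value was not tested.

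**Figure D3:**
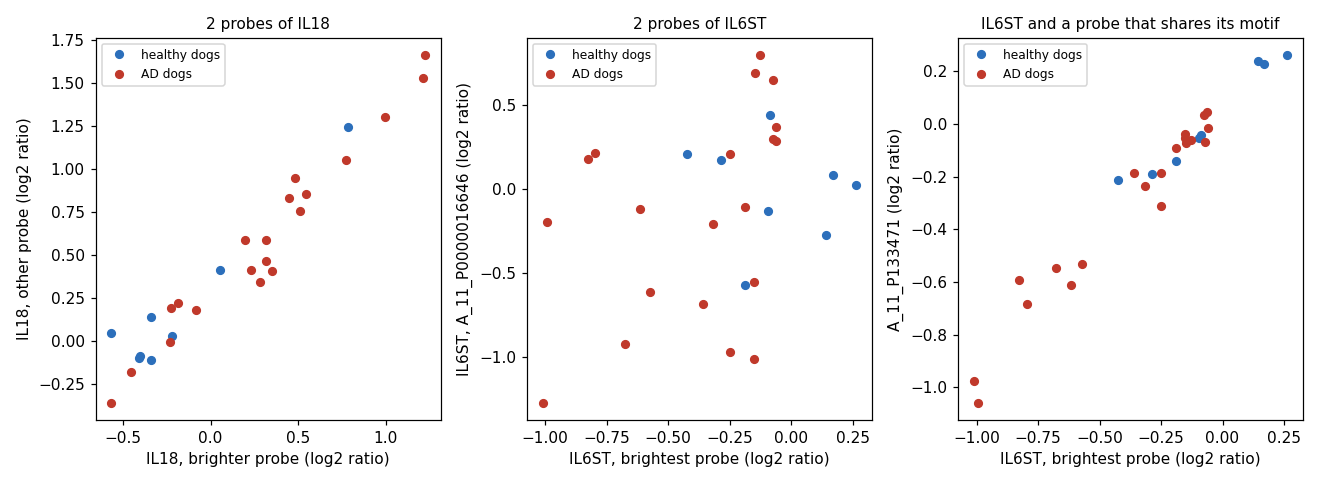
Log2 ratios of 1 probe against those of another in the same 28 dogs (blue, 8 healthy dogs; red, 20 AD dogs): both IL18 probes, the brightest IL6ST probe against another IL6ST probe, and the brightest IL6ST probe against A_11_P133471. The points of the left and right panels lie close to a line (correlations of 0.973 and 0.980), and those of the middle panel scatter (0.347).

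Other members with an unadjusted p under 0.05 were 3 ligands. IL7, which keeps naive T cells and lymphoid precursors alive, ran from -0.57 through 0.20 to 0.99 in healthy dogs and from -0.72 through -0.25 to 0.33 in AD dogs. The healthy range contained all AD values but 3, and the difference was -0.33 (SE 0.16, limma unadjusted p = 0.0403). Its second probe was well above background in no dog. IL11, a gp130 cytokine of stromal cells, ran from -0.15 through 0.04 to 1.07 in healthy dogs and from -1.34 through -0.20 to 0.67 in AD dogs. The difference was -0.42 (SE 0.17, limma unadjusted p = 0.0196). It was -0.12 (p = 0.0568) with normexp and loess, -0.22 (p = 0.324) without the slide of healthy dogs 5 to 8, and -0.31 (limma unadjusted p = 0.0363, as 7.75% of all tested probes had one under 0.05) without the 7 arrays of low detection, which held the lowest and the highest AD value. IL16, a chemoattractant for CD4 T cells, differed by 0.29 (SE 0.14, limma unadjusted p = 0.0489) on the probe A_11_P191763. Its brighter probe differed by 0.01 (SE 0.10), so that the probes of this gene did not agree.

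**Figure D4:**
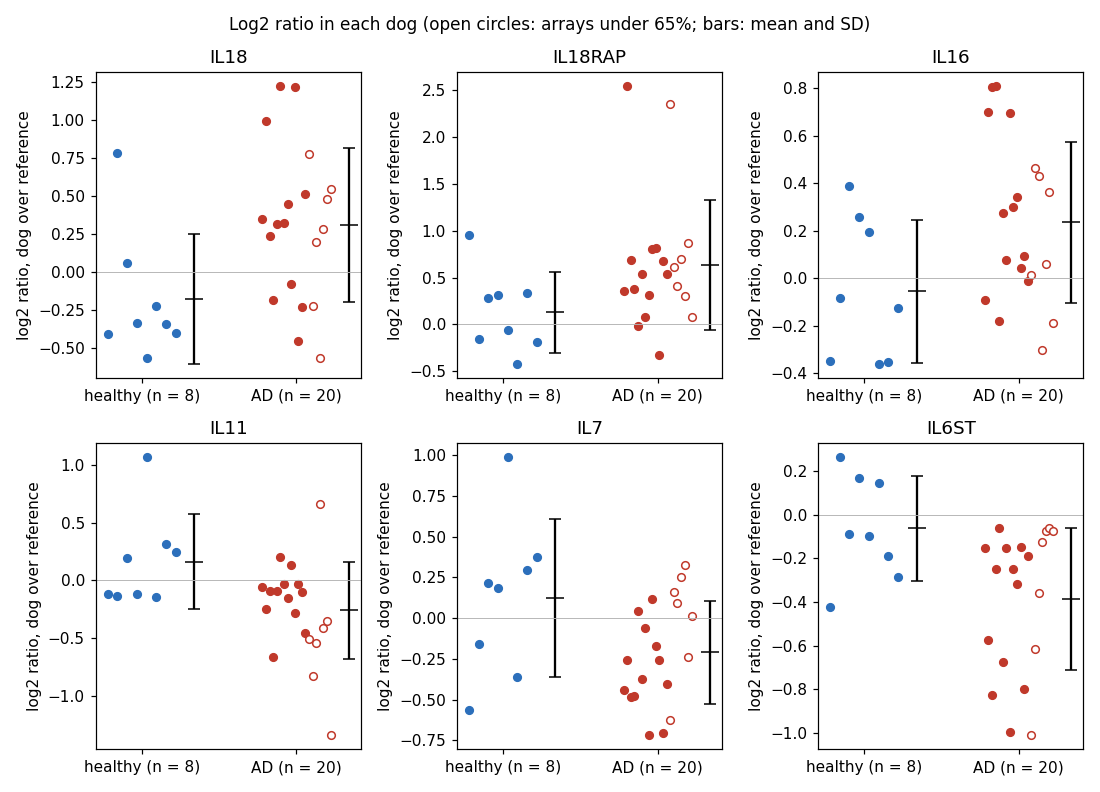
Log2 ratio of dog to reference in each of the 8 healthy (blue) and 20 AD dogs (red) for 6 genes, with the mean and SD as black bars. Open circles are the 7 AD arrays of low detection. The groups overlap in all 6 panels.

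These differences leaned on which healthy dogs were included. Without the slide of healthy dogs 5 to 8, no member probe had an unadjusted p under 0.05 by limma, where 2.60% of all tested probes did. In that fit IL18 stood at 0.28 (p = 0.300 by limma). Without the slide of healthy dogs 1 to 4, 8 of the 54 member probes (14.8%) had such a p, where 5.66% of all tested probes did. None of these passed the adjusted threshold. With the slide as a random block in limma, the unadjusted p was 0.0380 for IL18, 0.0355 for IL11, 0.0456 for IL6ST, 0.0711 for IL7 and 0.0918 for IL16, where 3.98% of all tested probes had one under 0.05. Each slide held dogs of 1 group only and the fit counts single arrays, so these p-values can be too small. With array weights, IL18 at 0.56 and IL7 at -0.41 had an adjusted p of 0.085 or less by limma, as 2.81% of all tested probes did. When the Cy5 signal of the dog was used without the reference, 3 member probes had an adjusted p of 0.085 or less by limma (3.48% of all tested probes did): IL6ST at -0.56, IL16 (A_11_P191763) at 0.55 and IL11 at -0.56.

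By family, tested probes of the IL-1 family had a median log2 fold change of 0.23 (10 probes, 8 of them higher in AD dogs). The 5 IL-18 probes grouped above were among these 8. Of all tested probes, 47.9% had a value above 0 and 52.1% one below 0. The IL-10 family had a median of 0.17 (7 probes, 5 higher). Within it IL22, a cytokine that acts on the epidermis, differed by 0.36 (SE 0.21) and the soluble IL-22 inhibitor IL22RA2 by 0.19 (SE 0.18). The IL22 probe passed the signal filter through the healthy arrays alone. Its median signal there was 116.9 for the dogs and 109.6 for the reference, against 96.69 and 78.99 on AD arrays. Without the 7 arrays of low detection IL22 stood at 0.10, with normexp and loess at 0.03 and in the dog channel alone at -0.0094. Probes of the IL-6 and IL-12 group had a median of -0.14 (13 probes, 8 lower), those of the common gamma chain cytokines -0.07 (8 probes, 6 lower) and those of the IL-17 family -0.07 (8 probes, 5 lower). The lowest IL-17 family value, -0.19, was that of the IL17RE probe, whose signal cannot be assigned. Without the 7 arrays the median of the IL-6 and IL-12 group turned to 0.02, and those of the IL-17 and common gamma chain groups were -0.13 and -0.03. All but the 5 probes above had an unadjusted p over 0.05. The eosinophil growth factor IL5 differed by -0.23 (SE 0.17), the alarmin IL33 by -0.27 (SE 0.25) and IL17A by 0.01 (SE 0.16). Without the 7 arrays IL33 turned to 0.08, IL5 stood at -0.04 and IL17A turned to -0.03. IL5 and IL33 were detected on all 8 healthy arrays and on 0 of these 7 AD arrays. Their differences over all arrays therefore rest in part on signals near background. Ligands (24 probes) and receptors (26 probes) had medians of -0.03 and -0.01.

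The proteins that carry interleukin signals inside the cell were followed as well. Of 23 listed genes 15 were on the array under those names, from the kinases JAK1 and JAK2 through STAT factors and the SOCS inhibitors to MYD88, IRAK3, IRAK4 and TRAF6. All 15 were tested and none had an unadjusted p under 0.05 by limma. Their median log2 fold change was 0.08, with STAT6, the factor downstream of IL-4 and IL-13, at 0.22 (SE 0.19) and STAT2 at -0.26 (SE 0.19).

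Over the 28 dogs of both groups together, the log2 ratio of some of these genes varied far more than that of others. The standard deviation of the log2 ratio over the 28 dogs was taken for the brightest probe of each of the 21 genes on all arrays. Its median was 0.355, against 0.371 for all such probes of the array. Among these brightest probes, that of IL34, a ligand of the macrophage receptor CSF1R, varied most (SD 0.88). The dimmer IL1R2 probe A_11_P0000020395, also on all arrays, varied more (SD 1.02), with AD dogs 2 and 14 at 3.87 and 2.99. The IL34 values ran from -1.02 to 1.80 in healthy dogs and from -1.18 to 2.29 in AD dogs. Healthy dogs 2, 3 and 4 stood at 0.98, 1.80 and 1.32. Healthy dog 1, of the same slide, stood at -0.42, and healthy dogs 5 to 8, of the other slide, lay between -1.02 and -0.19, and the part of the slide in this was not tested. After IL34, the brightest probes of IL18RAP (SD 0.66), IL12RB2 (0.65), IL18 (0.53) and IL2RB (0.52) came next. IL12RB2, the inducible chain of the IL-12 receptor, ran from -1.50 to 1.05 in healthy dogs and from -1.77 to 0.34 in AD dogs, and did not differ between the groups beyond that spread (-0.15, SE 0.26). IL2RB differed by -0.07 (SE 0.21).

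The brightest probes that varied least were those of IL16 (SD 0.196), IL6R (0.199), IL17C (0.234), IL29L (0.259) and IL1R2 (0.274). The other probes of IL16 and IL1R2 had SDs of 0.349 and 1.02, so that this order holds for the brightest probes alone. For IL16 and IL6R, 2.72% and 3.00% of the probes on all arrays varied less. IL6R, the ligand-binding chain for IL-6, lay between -0.42 and 0.27 in all 28 dogs and differed by 0.10 (SE 0.10) between the groups. IL17C, an epithelial IL-17 cytokine, differed by -0.15 (SE 0.11) and IL29L, named for its likeness to a lambda interferon, by 0.17 (SE 0.12).

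**Figure D5:**
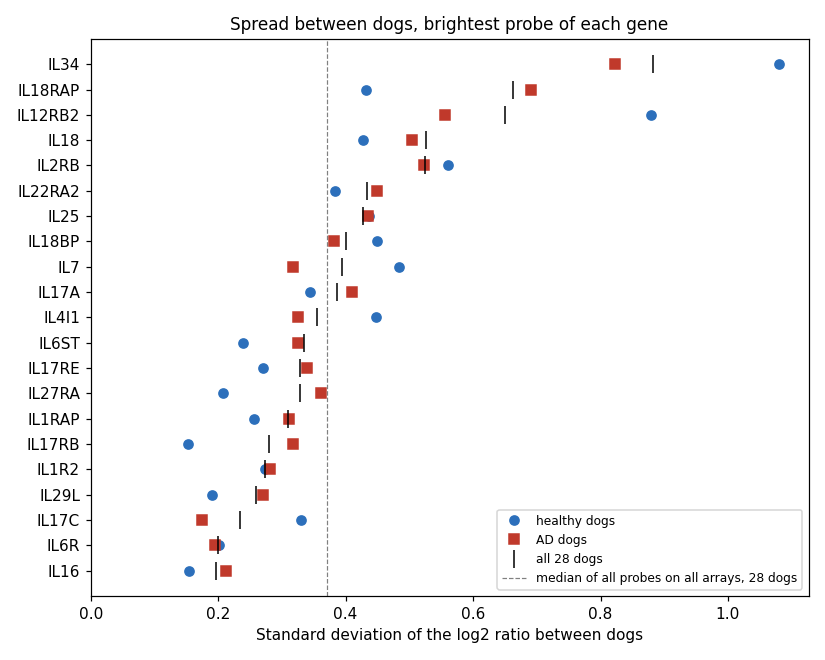
Standard deviation of the log2 ratio between dogs for the brightest probe of the 21 genes on all arrays, over 8 healthy dogs (circles), 20 AD dogs (squares) and all 28 (vertical ticks). The dashed line is the median of all probes on all arrays (0.371), and IL34 lies at 0.882 over all dogs.

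Different probes of a gene agreed to very different degrees. In 11 genes with 2 or more tested probes there were 18 pairs of probes, and their correlations over the 28 dogs had a median of 0.426. They were highest for IL18 (0.973) and IL18BP (0.970), and IL12RB2 (0.771), IL15 (0.763) and IL27RA (0.688) followed. For IL1R2 the correlation was 0.157. The brighter IL1R2 probe differed by -0.02 (SE 0.12) between the groups and the other by 0.23 (SE 0.40).

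Chains of 1 receptor were then compared across dogs, since they act together on a cell. Of 6 listed pairs 2 could be used, which gave 4 correlations in AD and healthy dogs. IL10RB, IL12RB1 and IL15RA had no probe on the array under those symbols, and IL18R1 was below the signal filter. Of these pairs' other tested chains, IL10RA, which binds IL-10, differed by 0.23 (SE 0.22, limma unadjusted p = 0.296). IL1R2 and IL1RAP, which bind IL-1 together, had a Pearson r of 0.529 in the 20 AD dogs (permutation p = 0.0172, adjusted 0.0587) and a Spearman rho of 0.367 (permutation p = 0.111, adjusted 0.221). In the 8 healthy dogs r was 0.649 (exact permutation p = 0.101, adjusted 0.135) and rho 0.357 (exact permutation p = 0.389, adjusted 0.419). Without the 2 dogs farthest from the IL1R2 median, the AD dogs gave r = 0.431 and the healthy dogs r = 0.213, and neither group held a relation that passed the correction on the values as measured. With slide means removed, r was 0.627 in AD dogs (permutation p = 0.00291, adjusted 0.0116) and 0.553 in healthy dogs (permutation p = 0.164, adjusted 0.164). Here dogs were shuffled across slides after the means had been taken out. These p-values are therefore approximate and can be too small, and no relation was read from them.

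IL6R and IL6ST had an r of 0.287 in AD dogs (permutation p = 0.218, adjusted 0.218) and a rho of 0.191 (permutation p = 0.419, adjusted 0.419). In healthy dogs r was 0.755 (exact permutation p = 0.0294, adjusted 0.0587) and rho 0.714 (exact permutation p = 0.0576, adjusted 0.221). Without the 2 dogs farthest from the IL6R median these were r = 0.380 and r = 0.538, and the latter had an exact permutation p of 0.289. With IL6ST as the mean of its 3 probes without GGCTCAGT, the AD dogs gave r = -0.171 and the healthy dogs r = 0.0364. The value in healthy dogs thus depended on which IL6ST probe was used, and it did not pass the correction with the brightest one.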

How the data were processed

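Two-color arrays of blood RNA from 20 AD and 8 healthy dogs were used. Per the file headers, the authors' Agilent Feature Extraction gave for each spot the processed Cy5 and Cy3 signal intensity, background subtracted and dye normalized, and marks of detection. The submitters' processing notes name version 10.7.3.1. The deposited table of log10 ratios, made by the authors from these spots, served as an alternative. Here spots with outlier marks were left out, spots of 1 probe were averaged, and the log2 ratio of Cy5 to Cy3 was centred per array on its median, taken across tested probes (well above background on any array, and median signal over 100 in either channel in either group). Groups were compared with limma 3.58.1 (R 4.3.3) with Benjamini-Hochberg adjustment over all 30202 probes, thresholds of 0.085 and 0.05, tested on simulated data. P-values cover the spread between single dogs. Permutation tests were two-sided, exact in 8 dogs and with 100000 resamples in 20. With slide means removed, dogs were shuffled across slides, so those p-values are approximate. Members and gene lists were chosen with earlier results of these data known. Genes were named with values when a tested probe had an unadjusted p under 0.05 or when they belonged to a listed receptor pair. The rule also named genes well above background in no dog and those with the 5 largest and 5 smallest standard deviations. It further named the 3 with the largest differences in detection, and IL2. Others were named after their values were seen. Gene symbols are those of the array files. The number of arrays limits the precision.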

Additional observations from a re-analysis of the deposited data

Results flagged for a closer look

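In 3 of the 16 probes examined (1 for each of the 16 tested genes named by rule: those with an unadjusted p under 0.05, of the receptor pairs, or with the largest or smallest standard deviations, and IL2), 1 of the 8 healthy dogs lay far from the others, with a gap to the next dog of 0.539 to 0.712 of the group's whole range. Chance gives such a gap in about 5% of groups. For IL11, healthy dog 5 had a log2 ratio of 1.07, with the next dog at 0.31. For IL17C the same dog stood at 0.96, with the next at 0.21. For IL18, healthy dog 2 stood at 0.78, with the next at 0.05, and this dog was also the highest healthy dog on the second IL18 probe (1.25).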

How the results depend on the processing

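No member probe passed the adjusted threshold of 0.085 by limma with other filters, with outlier spots kept, with normexp and loess, with other centring, on the authors' values, with slide or scan day as a random block, with trend and robust variance, without any 1 slide, or without scan day 1, 3, 4 or 5. The exceptions were the dog channel alone (3 probes) and array weights (2 probes, IL7 and IL18, where 2.81% of all probes passed). The 5 member probes with an unadjusted p under 0.05 (9.26% of members, 6.12% of all probes) became 3 with normexp and loess (5.56% and 5.58%). There were 3 with slide (5.56% and 3.98%) and 3 with scan day as a random block (5.56% and 4.88%). The dog channel alone gave 17 (31.5% of members, 19.2% of all probes) and array weights 13 (24.1% and 18.9%). Leaving out 1 slide gave from 0 (0% and 2.6%, healthy dogs 5 to 8 out) to 8 (14.8% and 5.66%, healthy dogs 1 to 4 out). Leaving out 1 scan day gave from 3 (5.56% and 5.7%, day 1) to 8 (14.8% and 9.29%, day 5). Dog numbers in the labels mark different animals in AD and healthy dogs. As a replicate block they gave 10 probes at an unadjusted p under 0.05 (18.5% of members, 17.1% of all probes) and none at the adjusted threshold, while the 8 same-numbered pairs had correlations of -0.359 to 0.425 (median 0.103) and no healthy dog correlated best with its own number. IL18 had an unadjusted p under 0.05 in 27 of 28 alternatives, IL6ST in 25 of 28, IL11 in 24 of 27, IL7 in 15 of 27 and IL16 in 14 of 28. These genes were picked for such a p in the main fit, and the alternatives reuse the same arrays. Slide 1 also holds the same arrays as scan day 1, and slide 4 the same as scan day 3. The counts therefore describe the processing and are no independent support for a difference.

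Genes on all arrays numbered 32 in place of 21 without scan day 5 and 39 without the 7 arrays of low detection, an alternative added after the data were seen, and the range over slides and scan days left out was 21 to 32. The 3 genes on no array became 0 with the laxer mark of a positive and significant signal. IL1R2 and IL1RAP in AD dogs passed 0.05 with normexp and loess (r = 0.725) and with all tested probes averaged (r = 0.542). With slide means removed they gave r = 0.627 (adjusted p = 0.0116 by permutation). That p can be too small, because dogs were shuffled across slides. In healthy dogs their r turned to -0.447 in the dog channel alone. IL6R and IL6ST passed in healthy dogs with normexp and loess (r = 0.832), and in AD dogs r turned to -0.379 with all tested probes averaged and to -0.171 without the motif probe. Leaving out each AD scan day gave r from 0.465 to 0.614 and from 0.193 to 0.418 for these pairs in AD dogs. It could not be done in healthy dogs, which share 1 scan day.

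Some log2 fold changes changed sign. Of the 16 genes named by rule, those in the dog channel alone were IL1R2 (0.28), IL2RB (0.36), IL29L (-0.0632) and IL6R (-0.10). With the replicate block they were IL1R2 (0.0071) and IL34 (-0.0256), with array weights IL1R2 (0.0544), with normexp and loess IL2 (0.0093) and IL34 (-0.0348), with all probes averaged IL1R2 (0.11), and without the 7 arrays IL2 (0.0182). Of the other genes given values, IL33 (0.08) and IL17A (-0.03) did so without the 7 arrays, IL17A with normexp and loess (-0.07), and IL17A (-0.09) and IL22 (-0.0094) in the dog channel alone; these were not run under every alternative. With slides or scan days left out, values ranged from -0.46 to 0.15 for IL12RB2, from -0.15 to 0.11 for IL1R2, from -0.18 to 0.0563 for IL2 and from -0.69 to 0.88 for IL34.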
